A study of Mus musculus with 4 samples.

Results

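Bidirectional promoters of protein-coding gene pairs were examined in DNase-seq data from mouse T cells. A pair was taken as 2 protein-coding genes of GENCODE mouse release 21 on opposite strands of the same autosome, head to head, with 5′ ends at most 1 kb apart and bodies that did not overlap. Its region was the sequence between the 5′ ends plus 500 bp on each side (build mm10, GRCm38). On chromosomes 1 to 19, 734 pairs met this definition, and they held 1448 of the 20807 protein-coding genes, or 6.96%. Each of 20 genes stood in 2 pairs, so that the pairs are not all independent of each other. The distance between the 5′ ends was 1 to 987 bp, with a median of 128 bp and quartiles of 66.25 and 240 bp, and the regions were 1002 to 1988 bp wide.

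The label names primary alpha-beta T cells that were CD8-positive, naive and resting, from female, virgin, adult B6CASTF1/J mice aged 2 months. These mice are a first-generation cross of the laboratory strain C57BL/6J and the wild-derived strain CAST/EiJ, and both alleles of a site contribute to 1 value here. There are 4 libraries, biological replicates 1 to 4 by their labels, with no treatment and 1 shared donor identifier. Whether they stem from different animals is not stated, and a p-value over them reflects their own spread, which may be technical. Because there is 1 group, the comparisons are between the pairs and single promoters within each library.

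In DNase-seq, the enzyme DNase I cuts chromatin where nucleosomes do not protect it, and the cut ends are sequenced, so that peaks mark accessible DNA. A footprint is a short stretch within accessible DNA with fewer cuts than its surroundings, as a bound protein can leave. In a bidirectional promoter, 2 genes that point away from each other start from a shared stretch, usually a CpG island in which nucleosomes are displaced and polymerases are loaded in both directions. Such promoters are known for genes of DNA repair, mitochondria and RNA processing, for the rarity of TATA boxes, and for binding sites of NRF1, ETS factors and NF-Y, which are activators of broadly used genes.

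The sequences between the 5′ ends show how varied this shared stretch is. A pair is written with the gene on the minus strand first, and each sequence is the plus strand of GRCm38, 5′ to 3′, without the flanks. Capitals mark matches to one of 14 motifs searched on both strands. The first 3 are shown because their matches repeat or face each other.
Cct5/Fam173b (chr15:31601805-31601851): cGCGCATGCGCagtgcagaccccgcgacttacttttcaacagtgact
B3galt6/Sdf4 (chr4:155992650-155992871): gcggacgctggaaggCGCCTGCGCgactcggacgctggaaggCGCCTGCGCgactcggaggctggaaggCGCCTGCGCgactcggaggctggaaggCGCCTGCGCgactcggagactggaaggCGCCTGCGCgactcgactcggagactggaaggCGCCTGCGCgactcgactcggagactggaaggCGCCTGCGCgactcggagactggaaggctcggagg
Hepacam2/Vps50 (chr6:3498299-3498381): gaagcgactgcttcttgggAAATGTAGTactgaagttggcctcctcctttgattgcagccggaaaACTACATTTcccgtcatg
The capitals are 2 overlapping NRF1 matches between Cct5, a subunit of the cytosolic chaperonin, and Fam173b. They are 7 NRF1 matches in a tandem repeat between B3galt6, a galactosyltransferase of proteoglycan synthesis, and Sdf4, a calcium-binding protein of the Golgi. In the stretch between Hepacam2, a cell adhesion protein, and Vps50, a subunit of an endosomal tethering complex, they are 2 ZNF143 matches on opposite strands.

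The next 4 sequences belong to pairs whose mean peak height lay above that of the median pair, and they hold motifs of other factors. Mrps12/Sars2 was below the median pair in replicate 2.
Mrps12/Sars2 (chr7:28741821-28741991): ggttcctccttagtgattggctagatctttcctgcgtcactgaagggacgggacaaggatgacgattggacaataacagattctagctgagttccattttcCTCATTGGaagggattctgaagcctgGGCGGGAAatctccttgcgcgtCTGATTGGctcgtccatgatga
Gtf3c1/D430042O09Rik (chr7:125707781-125707887): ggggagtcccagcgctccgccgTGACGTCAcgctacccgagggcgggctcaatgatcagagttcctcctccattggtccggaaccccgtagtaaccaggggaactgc
Dcaf6/Mpc2 (chr1:165460476-165460636): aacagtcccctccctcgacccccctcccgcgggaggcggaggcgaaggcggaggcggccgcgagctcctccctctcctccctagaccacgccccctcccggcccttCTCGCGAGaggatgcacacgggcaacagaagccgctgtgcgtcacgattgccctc
Rita1/Ddx54 (chr5:120612590-120612738): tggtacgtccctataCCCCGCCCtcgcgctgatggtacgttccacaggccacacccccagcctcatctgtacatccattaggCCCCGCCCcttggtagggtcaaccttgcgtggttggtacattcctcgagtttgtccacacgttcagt
In Mrps12/Sars2 the capitals are an NF-Y match, an E2F match and a second NF-Y match. They are the CREB palindrome in Gtf3c1/D430042O09Rik, the CGCG palindrome in Dcaf6/Mpc2 and 2 SP/KLF matches in Rita1/Ddx54. In Mrps12/Sars2 and Rita1/Ddx54 the centre of the tallest peak lay outside the stretch shown in all 4 libraries. In the other pairs it did so in some libraries.

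The last 3 show a promoter with no match, a histone promoter with low peaks and a promoter that was closed in all 4 libraries.
Brca1/Nbr1 (chr11:101551956-101552148): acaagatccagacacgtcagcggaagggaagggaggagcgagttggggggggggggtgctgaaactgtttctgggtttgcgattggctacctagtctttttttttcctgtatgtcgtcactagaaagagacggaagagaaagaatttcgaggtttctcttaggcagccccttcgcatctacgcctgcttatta
Hist1h2an/Hist1h2bp (chr13:21787219-21787460): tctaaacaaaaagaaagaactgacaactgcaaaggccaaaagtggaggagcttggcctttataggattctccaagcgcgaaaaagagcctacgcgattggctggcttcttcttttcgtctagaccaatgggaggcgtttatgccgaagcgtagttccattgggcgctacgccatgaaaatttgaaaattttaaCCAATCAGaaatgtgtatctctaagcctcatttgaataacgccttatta
Col4a4/Col4a3 (chr1:82586850-82586920): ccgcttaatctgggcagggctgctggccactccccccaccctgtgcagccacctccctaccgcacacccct
The match in the histone pair is 1 NF-Y match. A motif without a match here says only that its exact letters are not in the window.

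Before the results, the libraries have to be set apart. The longer of the 2 peak lists of each library held 69413, 70552, 51121 and 20647 peaks in replicates 1 to 4, and the footprint lists held 170815, 149082, 137861 and 26149 footprints, so that replicate 4 was the shallowest library by both. Of 8 T cell marker promoters, 7, 7, 5 and 3 had a peak in replicates 1 to 4, with summed relative heights of 4.15, 4.37, 3.58 and 2.68. Cd8a, the alpha chain of the coreceptor named in the label, had a peak in replicates 1 and 2 (0.498 and 0.366) and was at 0 in the libraries labelled replicates 3 and 4, while Cd8b1 had one in all 4. Cd4 was at 0 in all 4 libraries, and Zbtb7b, which directs the CD4 helper lineage, had 0.251, 0.358, 0.746 and 1.12. The 6 B cell markers summed to 0.789, 0.672, 2.10 and 2.11 in replicates 1 to 4, the 4 myeloid markers to 0.749, 0.570, 0.698 and 0, and the 3 erythroid markers to 0.136, 0.0914, 0 and 0. Csf1r, Hba-a1 and Hbb-bs, defining genes of the myeloid and erythroid lineages, were at 0 in all 4 libraries. The other 3 myeloid markers, Spi1, Lyz2 and Itgam, had a peak in replicates 1, 2 and 3 (Spi1 0.349, 0.276 and 0.388) and none in replicate 4, and Klf1, an erythroid factor, had one in replicates 1 and 2. The libraries labelled replicates 3 and 4 thus go against their label at Cd8a, and the values below are given for each library and, for the main results, for replicates 1 and 2 alone. The part of other cell types in the results was not tested.

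The pairs were accessible far more often than protein-coding promoters in general. A peak of the longer list overlapped 94.7%, 94.4%, 94.1% and 88.4% of the pair regions in replicates 1 to 4, which is 695, 693, 691 and 649 of the 734 pairs. Over all 20807 protein-coding genes, 52.9%, 52.8%, 51.4% and 42.1% had a peak in a window around the 5′ end in replicates 1 to 4. That window ran from 500 bp plus the median pair distance of 128 bp upstream to 500 bp downstream, as long as the median pair region. A peak in all 4 libraries was found at 648 pairs (88.3%), against 41.7% of all protein-coding 5′ ends, and no peak in any library at 36 pairs (4.90%), against 44.8%. A further 39 pairs had a peak in replicates 1, 2 and 3 and none in replicate 4. This window had a fixed length while pair regions vary, and CpG content was not matched. The next comparison matches both length and CpG content.

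Single promoters served as the comparison at equal CpG. They were the 17774 protein-coding genes with no other protein-coding 5′ end within 2 kb, each given a window as long as a pair region and weighted so that window length and CpG content matched those of the pairs. The pairs had a median of 6.57 CpG dinucleotides per 100 bp, against 6.57 in the weighted single promoters and 3.30 in the unweighted ones. At least 4 CpG per 100 bp were found in 91.1% of the pairs, against 43.9% of unweighted single promoters.

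At equal CpG and window length, pairs still had a peak more often than single promoters. The share was 94.7%, 94.4%, 94.1% and 88.4% in pairs, against 78.6%, 78.5%, 77.1% and 66.1% in single promoters, in replicates 1 to 4. All 4 libraries gave a higher share for the pairs, and the lowest value of the pairs lay above the highest of the single promoters. The difference was 17.8 ± 3.04 percentage points (SD, n = 4 libraries; exact sign-flip permutation over libraries, two-sided, p = 0.125, the smallest value that 4 libraries can give, so that no comparison of this kind can pass 0.05). It was 16.0 points over replicates 1 and 2 alone and 18.1 points without the library labelled replicate 3.

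A pair region has 2 starts and a single window has 1, so the share was also counted per start. A peak lay within 150 bp of 87.4 ± 3.53% of the starts in pairs and of 69.9 ± 5.39% of the starts of single promoters (SD, n = 4 libraries). The difference of 17.5 ± 1.87 points was positive in all 4 libraries (p = 0.125, exact sign-flip permutation), close to the difference per region. However, 1 peak can lie near both starts of a pair, and 305 pairs had starts less than 100 bp apart. This count therefore does not remove the advantage of a second start.

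**Figure D1:**
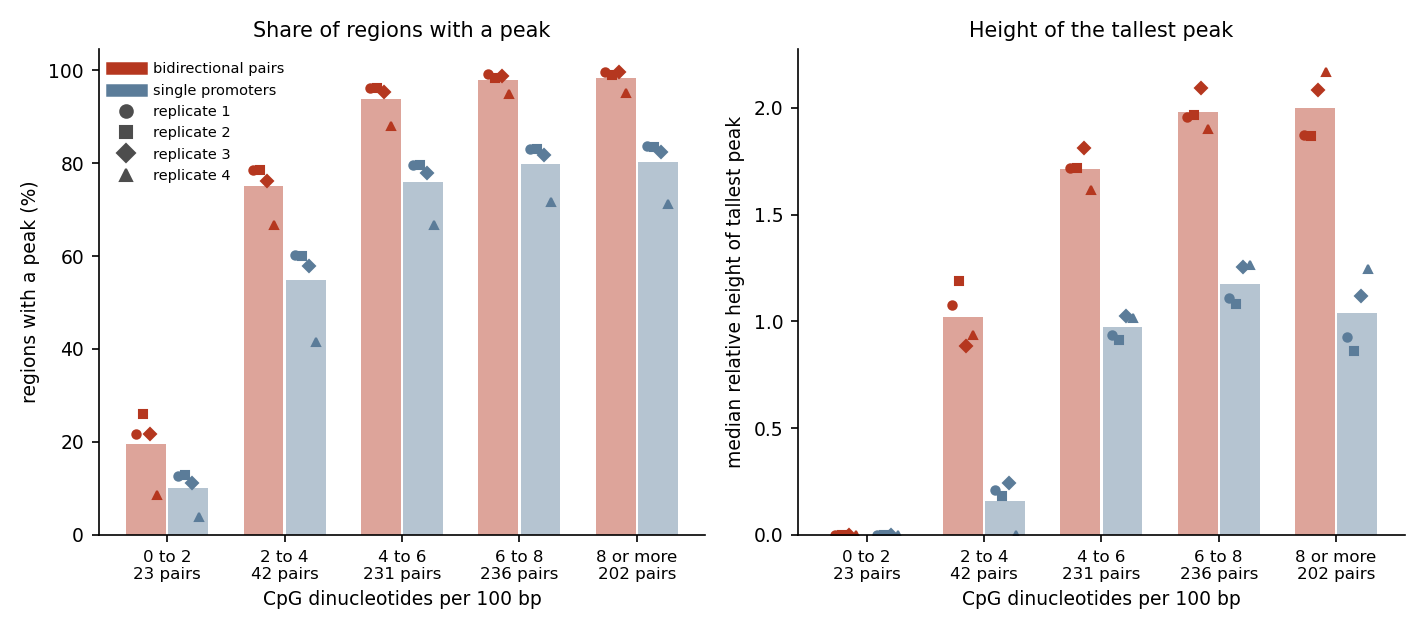
Share of regions with a peak (left, %) and median relative height of the tallest peak (right) for bidirectional pairs and single promoters of equal window length, by CpG dinucleotides per 100 bp. Bars are means over the 4 libraries and points are single libraries; in the class of 4 to 6 CpG, 93.8% of pairs against 75.9% of single promoters had a peak, and both medians of height are 0 below 2 CpG.

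The difference held across the range of CpG content. Below 2 CpG per 100 bp, where only 23 pairs lay, 19.6 ± 7.53% of pairs and 10.1 ± 4.22% of single promoters had a peak. From 2 to 4 CpG the shares were 75% ± 5.67 of 42 pairs and 54.9 ± 8.98% of single promoters. From 4 to 6, from 6 to 8 and at 8 or more CpG, the 231, 236 and 202 pairs had a peak in 93.8%, 97.8% and 98.3%, against 75.9%, 79.9% and 80.1% of single promoters. In each of the 5 classes the pairs were higher in 4 of 4 libraries, and both kinds of promoter levelled off above 6 CpG.

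Peaks at pairs were also taller. Height is given as relative height, the authors' deposited height divided by its median, in the same library, over the 17545 sites called in all 4, and a region with no peak counted as 0. The median relative height of the tallest peak was 1.79, 1.76, 1.89 and 1.78 in pairs, against 0.889, 0.844, 1.00 and 1.05 in single promoters, in replicates 1 to 4. The libraries lay close together in the pairs, and each put the pairs above the single promoters, by 0.860 ± 0.0888 (SD, n = 4; p = 0.125, exact sign-flip permutation). Over replicates 1 and 2 alone the difference was 0.912. In a bulk library, a lower peak can mean fewer cells with the site accessible or less access in each cell, and the height does not tell these apart.

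Within the pairs, the lower and upper quartiles were 1.10 and 2.48 in replicate 1 and 1.16 and 2.42 in replicate 4, and the tallest pair of each library reached 6.12, 5.72, 5.87 and 5.30. The difference was smaller where regions with no peak were left out. Among regions with a peak, the median relative height was 1.86, 1.82, 1.96 and 1.89 in pairs, against 1.30, 1.27, 1.46 and 1.68 in single promoters. The difference of 0.455 ± 0.165 was positive in all 4 libraries but smallest in replicate 4, at 0.211 (p = 0.125, exact sign-flip permutation). Replicate 4 called 66.1% of single promoters against 77.1% to 78.6% in the other libraries.

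The width and number of peaks differed less. The median width of the tallest peak was 235 ± 25.2 bp in pairs and 230 ± 25.8 bp in single promoters. The medians were equal in replicates 1, 2 and 3, with 240 bp in pairs against 220 bp in single promoters in replicate 4. Regions with a peak held 1.51, 1.66, 1.38 and 1.40 peaks in pairs, against 1.51, 1.61, 1.40 and 1.33 in single promoters, in replicates 1 to 4. Only 2 of 4 libraries put the pairs higher, and the difference of 0.0238 ± 0.0407 did not exceed its spread between libraries (p = 0.5, exact sign-flip permutation). It was 0.0667 ± 0.0140, positive in 4 of 4 libraries, when every library was held to an equal number of its tallest peaks, and -0.0199 when the 5′ ends were at most 500 bp apart.

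The accessible length and the number of footprints per region were higher in pairs. Neither was counted per start, although a pair region holds more starts than a single window. Peaks covered 341, 318, 341 and 292 bp of the pair regions, against 271, 248, 271 and 198 bp of the single windows, in replicates 1 to 4. This difference of 76.0 ± 12.2 bp was positive in every library (p = 0.125, exact sign-flip permutation). Footprints per region numbered 7.56, 6.73, 7.79 and 2.65 in pairs, against 5.04, 4.32, 5.04 and 1.57 in single promoters. The order was the same in the 4 libraries, with a difference of 2.19 ± 0.756 footprints (p = 0.125, exact sign-flip permutation), although replicate 4 had few footprints in both kinds of promoter.

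Counting only regions with a peak, pairs had 6.60 ± 2.45 and single promoters 5.21 ± 1.94 footprints per region, a difference of 1.39 ± 0.521 (SD, n = 4; p = 0.125, exact sign-flip permutation). A footprint was present in 691, 687, 689 and 603 pairs in replicates 1 to 4, in 603 of them in all 4 libraries, and in no library in 38 pairs. These counts are not given for single promoters.

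The tallest peak sat between the starts more often than in the same stretch upstream of a single promoter. In pairs that stretch has a start at both ends, in single promoters at the near end only. Its centre lay between the 5′ ends in 64.3%, 66.2%, 56.7% and 57.9% of pairs with a peak, against 44.8%, 48.3%, 41.3% and 43.8% of single promoters. The difference of 16.7 ± 2.42 points was positive in 4 of 4 libraries (p = 0.125, exact sign-flip permutation). In pairs the peak favoured neither strand. The median offset of its centre from the midpoint of the starts was 3, 0.5, 0 and -0.5 bp (positive toward the plus-strand gene). Of the centres, 51.1%, 50.5%, 49.8% and 49.3% lay nearer to the plus-strand gene. Strand is arbitrary, so these values do not show whether the peak of a given pair leaned to a side. In single promoters the centre lay upstream of the start in 65.9%, 69.4%, 61.5% and 60.8%, with median offsets of -31.5, -33.5, -25.5 and -20.5 bp (negative upstream).

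How the region was shared depended on the distance between the starts. With 5′ ends less than 100 bp apart (305 pairs), both starts had a peak within 150 bp in 92.4 ± 2.15% of pairs. The share was 85.6 ± 4.32% at 100 to under 200 bp (201 pairs), 86.7 ± 2.74% at 200 to under 300 bp (96 pairs), 63.7 ± 5.76% at 300 to under 500 bp (64 pairs) and 48.2 ± 11.7% from 500 bp upward (68 pairs). Over the same classes, pairs with a peak near 1 start alone made up 1.56%, 3.73%, 8.07%, 29.7% and 34.2%. Closely spaced starts can both lie within 150 bp of the same peak, so part of this order follows from the measure itself.

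**Figure D2:**
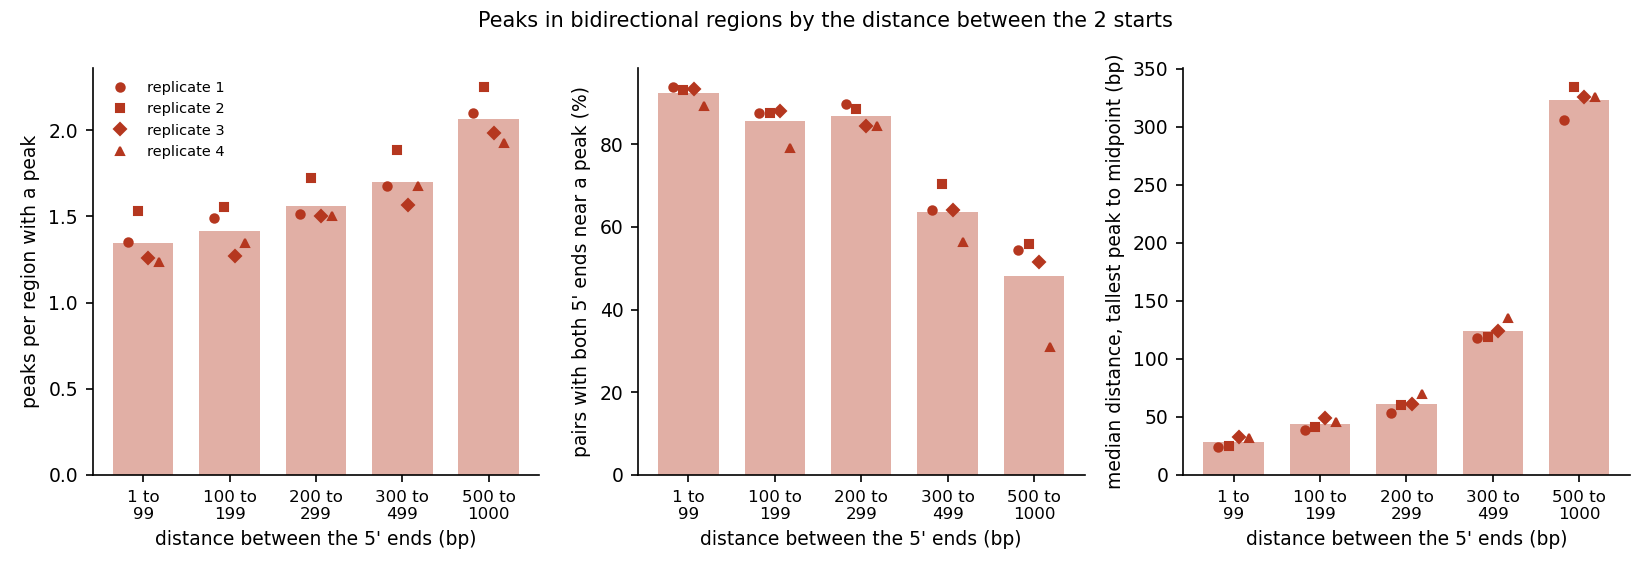
Peaks per region with a peak (left), pairs with both 5′ ends within 150 bp of a peak (middle, %) and median distance from the centre of the tallest peak to the midpoint of the starts (right, bp), by distance between the 5′ ends. Bars are means over the 4 libraries and points are single libraries; peaks per region averaged 1.34 in the closest class and 2.06 in the widest.

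Wider pairs held more peaks. The mean number of peaks per region with a peak was 1.34 ± 0.133, 1.42 ± 0.130, 1.56 ± 0.108, 1.70 ± 0.135 and 2.06 ± 0.144 over the 5 classes, from close to wide (SD, n = 4 libraries). Each of the 4 libraries gave a higher number in each wider class, by steps that were often smaller than the spread between libraries. At least 2 peaks were found in 28.6%, 37.1%, 48.0%, 53.6% and 69.6% of the regions with a peak, although the wider regions are also longer. The tallest peak lay 28.4, 43.9, 60.8, 124 and 323 bp from the midpoint, and 21.5, 48.3, 74.9, 86.3 and 103 bp from the nearer start. In the widest class it thus sat much closer to 1 of the starts than to the midpoint.

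**Figure D3:**
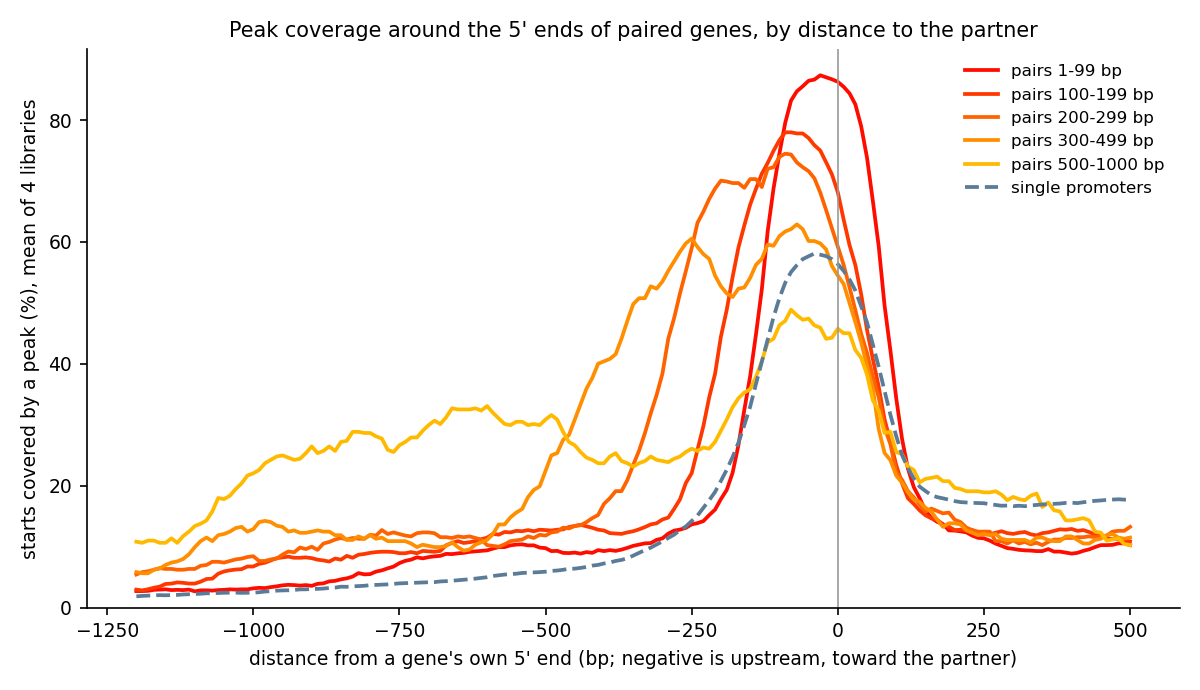
Share of 5′ ends covered by a peak (%, mean of 4 libraries) at each distance from the gene's own 5′ end (bp, negative upstream), for paired genes by the distance to the partner (solid lines) and for single promoters at the pairs' CpG content (dashed line). The highest share is 87.3% at -30 bp in the closest pairs, against 58.1% at -40 bp in single promoters, and the widest pairs reach 48.9% at -80 bp.

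Seen from a gene's own start, peak coverage was highest in pairs less than 100 bp apart, with 87.3% of starts covered at -30 bp. It was 78% at -90 bp, 74.5% at -90 bp, 62.9% at -70 bp and 48.9% at -80 bp in the wider classes, against 58.1% at -40 bp in single promoters. At their highest point, the classes up to 500 bp stood above the single promoters and the widest class below them. Median relative height did not fall in the same order, with 1.73 ± 0.0804, 1.85 ± 0.0609, 1.91 ± 0.118, 1.98 ± 0.108 and 1.49 ± 0.0570 from close to wide, and the median CpG content of the widest class was the lowest, at 5.25 per 100 bp.

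In 103 pairs, 2 or more peaks were called in all 4 libraries. Among the widest of these were Btf3l4/Txndc12 (987 bp), Smim7/Tmem38a (967 bp) and Mrpl41/Pnpla7 (935 bp). Btf3l4 is related to a basal transcription factor and Txndc12 is a thioredoxin of the endoplasmic reticulum. Their region held 3, 3, 2 and 3 peaks, the tallest with relative heights of 1.28, 1.43, 1.03 and 1.39, and both starts were near a peak in every library. Smim7/Tmem38a, whose second gene encodes a potassium channel of the sarcoplasmic reticulum, had 3, 3, 2 and 3 peaks and relative heights of 2.99, 2.91, 3.24 and 2.77. Its tallest peak lay on the Smim7 side of the midpoint, with offsets of -441, -411, -561 and -421 bp, and both starts were near a peak in every library.

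In other pairs the same single start was covered in all 4 libraries and the other in none. This was so in 4 of the 602 pairs less than 300 bp apart and in 14 of the 132 wider ones, while both starts were covered in all 4 libraries in 487 and 40. Tas1r1/Nol9 (753 bp apart) pairs a taste receptor with a nucleolar kinase of ribosomal RNA processing, and the covered start was that of Nol9, with relative heights of 2.33, 2.22, 2.58 and 3.19. In Actn3/Zdhhc24 (759 bp), an actin-binding protein of fast muscle fibres and a palmitoyltransferase, the covered start was that of Zdhhc24, at 1.71, 1.58, 2.10 and 1.79. Nlgn2/Tmem256 (730 bp) holds neuroligin 2, an adhesion protein of inhibitory synapses, and the start of Tmem256 was the covered one, at 1.23, 1.29, 1.18 and 1.12. These 3 pairs were chosen after their values were seen, from the 18 pairs of this kind. Others of the 18 join broadly used genes, such as Hnrnpa2b1/Cbx3 (466 bp), an RNA-binding protein and a heterochromatin protein, with the peak near Hnrnpa2b1 and relative heights of 4.10, 3.77, 4.82 and 3.44.

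**Figure D4:**
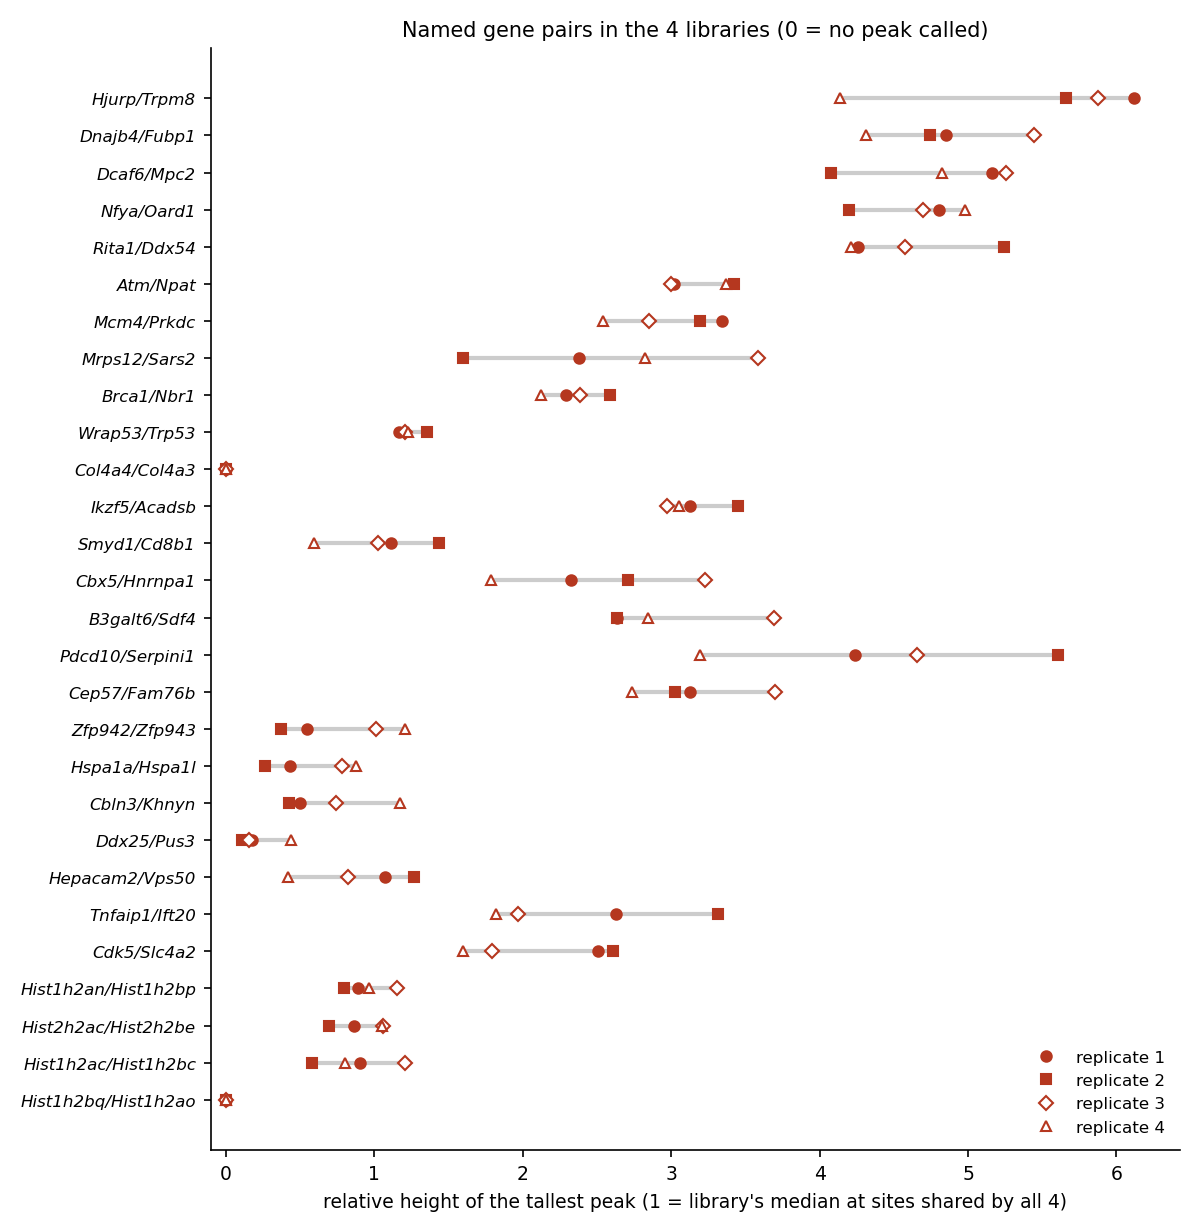
Relative height of the tallest peak in each named pair, with replicates 1 and 2 as filled and replicates 3 and 4 as open symbols, from the tallest pairs at the top to histone pairs at the bottom. A relative height of 1 is the library's median at sites called in all 4 libraries, and 0 means that no peak was called; Hjurp/Trpm8 lies between 4.14 and 6.12, and Col4a4/Col4a3 at 0 in all 4.

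The pairs with the tallest peaks joined genes of unlike function. Hjurp, the chaperone that places the centromeric histone CENP-A, and Trpm8, the cold-sensing ion channel of sensory neurons, start 28 bp apart (chromosome 1, 88277633 and 88277661). In replicates 1 to 4 their tallest peak reached a relative height of 6.12, 5.66, 5.87 and 4.14, the highest mean of all pairs at 5.45 ± 0.892 (SD, n = 4), and replicate 4 was the lowest. Dnajb4/Fubp1, a co-chaperone and a regulator that binds single-stranded DNA upstream of Myc, had 4.85, 4.74, 5.45 and 4.32. Dcaf6/Mpc2, a receptor of a ubiquitin ligase and a subunit of the mitochondrial pyruvate carrier, had 5.16, 4.08, 5.26 and 4.82. In replicate 2 its tallest peak was centred 564.5 bp from the midpoint toward Mpc2, near the edge of the region. All 4 libraries placed these pairs above 4, more than double the median pair of 1.76 to 1.89.

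Nfya, a subunit of the factor NF-Y, and Oard1, an ADP-ribose hydrolase, had 1 peak in each library, with relative heights of 4.81, 4.2, 4.70 and 4.98. Rita1/Ddx54, a regulator of Notch signalling and an RNA helicase, had 4.26, 5.25, 4.57 and 4.21, and its 2 SP/KLF matches shown above lay within footprints in replicates 1, 2 and 3. Of these tall pairs, Hjurp/Trpm8 spread most between libraries and Nfya/Oard1 least. The tallest peak was not always at the starts. In Rita1/Ddx54 its centre lay 316.5 to 346.5 bp from the midpoint toward Ddx54.

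Among textbook examples of bidirectional promoters, 6 pairs met the definition and 5 of them had a peak in all 4 libraries (all pairs 88.3%). Atm, the kinase of the DNA double-strand break response, and Npat, the activator of histone gene transcription in S phase, start 307 bp apart and had relative heights of 3.02, 3.42, 3.00 and 3.37. Mcm4, a subunit of the replicative helicase, and Prkdc, the kinase of end joining that lymphocytes need for V(D)J recombination, start 466 bp apart and had 3.34, 3.19, 2.85 and 2.54. These are broadly used genes of replication and repair, and both pairs stood above the median pair in every library. The Prkdc start had a peak within 150 bp in replicates 1, 2 and 3 and not in replicate 4, while the Mcm4 start had one in all 4.

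Mrps12, a protein of the mitochondrial ribosome, and Sars2, the mitochondrial seryl-tRNA synthetase, had 2.38, 1.60, 3.58 and 2.82, the widest spread of the 6. Brca1, a protein of homologous recombination, and Nbr1, an autophagy receptor, had 2.30, 2.59, 2.38 and 2.12. Its tallest peak was centred 658.5, 618.5 and 608.5 bp from the midpoint toward Nbr1 in replicates 1, 2 and 4. In these libraries the peak overlapped the region, but its centre lay just beyond the end. In replicate 3 the centre was 148.5 bp away. Both starts had a peak within 150 bp in all 4 libraries. Wrap53, a protein needed for telomerase assembly, and Trp53, the tumour suppressor p53, had 1.17, 1.36, 1.21 and 1.23, below the median pair in every library and with little spread. Col4a4/Col4a3, chains of the type IV collagen of the kidney basement membrane, had no peak and no footprint in any library.

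By function, DNA replication and repair genes were often paired. Of 127 listed genes 38 stood in a pair (29.9%), against 6.96% of all protein-coding genes, and 37 of their 40 pairs had a peak in all 4 libraries, where all pairs had 88.3%. Their median relative height was 1.92, 1.87, 2.15 and 1.89 in replicates 1 to 4, close to that of all pairs. Rad51c/Tex14, a protein of homologous recombination and a protein of the germ cell bridge, had 3.71, 3.18, 3.71 and 3.30, with the peak centred on the Rad51c side of the midpoint (offsets of -459, -459, -459 and -469 bp) and no peak near the Rad51c start. Xpc/Lsm3, the damage sensor of nucleotide excision repair and a subunit of the U6 RNA complex, start 40 bp apart and had 3.37, 3.21, 3.09 and 3.02.

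Genes of the mitochondrial ribosome and respiratory chain were in 44 pairs, and all 44 had a peak in all 4 libraries, where all pairs had 88.3%. Their median relative height was 1.84, 1.86, 1.94 and 1.96. Tepsin/Ndufaf8, an adaptor-associated protein and an assembly factor of complex I, had 4.33, 3.59, 5.58 and 3.04. The lowest of the 44 was Eme2/Mrps34, a subunit of a structure-specific nuclease and a mitochondrial ribosomal protein, at 0.578, 0.602, 0.667 and 0.561, with at least 1 peak in every library. Wdr4/Ndufv3, a subunit of a tRNA methyltransferase and a subunit of complex I, had 3.52, 4.69, 3.33 and 3.44.

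RNA polymerase and RNA processing genes gave 57 pairs, again with a peak in all 4 libraries at every one (all pairs 88.3%), and a median relative height of 2.33, 2.22, 2.42 and 2.12. Gtf3c1, the largest subunit of the general factor TFIIIC, and D430042O09Rik had 4.00, 3.62, 3.48 and 3.89, and the CREB palindrome between their starts lay within a footprint in all 4 libraries. The lowest was Ddx25/Pus3, a testis RNA helicase and a pseudouridine synthase, at 0.18, 0.110, 0.155 and 0.439.

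Of 20 pairs with cytosolic ribosome or translation genes, 19 had a peak in all 4 libraries (all pairs 88.3%), and their median relative height was 2.14, 2.06, 2.34 and 2.18. Rps28/Ndufa7, a protein of the small ribosomal subunit and a subunit of complex I, start 10 bp apart and had 4.18, 3.28, 4.11 and 3.21. Med22/Rpl7a, a Mediator subunit and a protein of the large ribosomal subunit, had 3.16, 3.93, 3.77 and 3.49. The pair with none was Rnf151/Rps2, described below with the closed pairs. Chaperone genes were in 14 pairs, of which 13 had a peak in all 4 libraries (all pairs 88.3%) and none lacked one in all, with a median of 2.30, 2.09, 2.40 and 2.14.

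Of the chaperone pairs, Tecr/Dnajb1, an enzyme of fatty acid elongation and an HSP40 co-chaperone, had 3.94, 3.91, 3.82 and 3.74, with a spread of 0.0905 (SD) between libraries. Cct5/Fam173b had 3.28, 1.89, 3.87 and 4.30, and the 2 overlapping NRF1 matches at its minus-strand end lay within a footprint in all 4 libraries. Proteasome and ubiquitin genes gave 24 pairs, 22 with a peak in all 4 libraries, with a median of 1.47, 1.61, 1.61 and 1.55. Zinc finger genes gave 24 pairs, 21 of them with a peak in all 4, with a median of 1.59, 1.53, 1.53 and 1.75. Both shares called are near the 88.3% of all pairs, and both lists lay below the median of all pairs in every library.

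Histone pairs were lower than pairs as a whole. Of 79 listed histone genes 27 stood in a pair (34.2%), against 6.96% of all protein-coding genes. Of their 14 pairs, 11, 11, 11 and 5 had a peak in replicates 1 to 4, where all pairs had 94.7%, 94.4%, 94.1% and 88.4%. No library had a peak at 3 of the 14, against 4.90% of all pairs. The median CpG content of the 14 pairs was nevertheless 7.08 per 100 bp, against 6.57 in all pairs. Their median relative height was 0.680, 0.410, 0.802 and 0, against 1.79, 1.76, 1.89 and 1.78 in all pairs. Hist1h2an/Hist1h2bp, genes of core histones H2A and H2B that are transcribed in S phase, was the tallest by the mean over libraries, at 0.891, 0.8, 1.15 and 0.965. Many of these genes are near-identical copies, and the part of reads that cannot be placed between copies was not tested.

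T cell genes were seldom paired. Of 86 listed genes for antigen presentation and T cell function, 2 stood in a pair (2.33%, against 6.96% of all genes). Both pairs had a peak in all 4 libraries, where all pairs had 88.3%. Cd8b1, the beta chain of CD8, lies 555 bp from Smyd1, a histone methyltransferase of heart and skeletal muscle (chromosome 6, 71322788 and 71322233), in a CpG-poor region of 1.67 CpG per 100 bp. In replicates 1 to 4 its tallest peak stood at 1.12, 1.43, 1.03 and 0.596, highest in replicates 1 and 2 and lowest in replicate 4. The Cd8b1 start had a peak within 150 bp in all 4 libraries and the Smyd1 start in replicates 1 and 3, where the peak was 400 and 600 bp wide and reached toward both. Ikzf5/Acadsb, a zinc finger protein of the Ikaros family and an acyl-CoA dehydrogenase, had 3.12, 3.45, 2.98 and 3.05.

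Families of tissue-restricted genes had 6 of 1724 genes in pairs (0.348%, against 6.96% of all genes). They stood in 5 pairs, of which 2 had a peak in all 4 libraries and 2 in none (all pairs 88.3% and 4.90%). The median relative height was 0.131, 0.0914, 0 and 0, below that of the histone pairs in replicates 1 to 3. The members with a peak in all 4 were Polk/Col4a3bp (2.24, 2.16, 2.10 and 1.39) and Slc25a27/Cyp39a1 (0.742, 0.779, 0.866 and 0.825). Polk is a DNA polymerase that bypasses damage, and Col4a3bp, a ceramide transfer protein, is in the list by the start of its symbol and is no collagen. Slc25a27 is a mitochondrial carrier and Cyp39a1 an oxysterol hydroxylase.

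The 36 pairs with no peak in any library had a median of 2.11 CpG per 100 bp, against 6.57 in all pairs, and a median distance of 140 bp. The most CpG-rich of them was Ppp1r3d/Fam217b, whose first gene is a targeting subunit of protein phosphatase 1, with 9.88 CpG per 100 bp. After the histone pairs Hist1h2ap/Hist1h2br and Hist1h2bq/Hist1h2ao came Nr2e1/Ostm1 (5.96), Gm10447/Shroom1 (5.75) and Smc1b/Ribc2 (5.65). Nr2e1 is a nuclear receptor of neural stem cells, and Smc1b is a cohesin subunit of meiosis. Peg3/Usp29, an imprinted pair, had no peak with 4.62 CpG per 100 bp.

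Some of these pairs are closed at the outermost annotated start and accessible at another. Of the 71 genes in the 36 pairs, 36 had an annotated start outside the pair region, and 13 of these had a peak within 150 bp of such a start in all 4 libraries. Xrcc1, the scaffold of single-strand break repair, had relative heights of 2.89, 3.11, 2.92 and 3.02 at another start, while its pair with Pinlyp was at 0. Rps2, a protein of the small ribosomal subunit paired with Rnf151, had 2.48, 2.79, 2.24 and 2.51, and Trim28, the corepressor of zinc finger proteins paired with Slc27a5, had 2.05, 2.10, 3.45 and 3.12. For Dgcr2, paired with the testis kinase Tssk2, the values were 3.03, 3.27, 3.26 and 2.23. These 4 genes, chosen after their values were seen, are accessible in every library although their pair region is not. The same can hold for single promoters, where it was not counted.

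Among the 648 pairs called in all 4 libraries, which leaves out the 39 with no peak in replicate 4 alone, the ratio of the mean relative height in the libraries labelled replicates 3 and 4 to that in replicates 1 and 2 was 1.04 at the median pair, with extremes of 0.532 and 2.41. The lowest were Hepacam2/Vps50 (1.07, 1.27, 0.825 and 0.421 in replicates 1 to 4), Smyd1/Cd8b1 (ratio 0.637), Tnfaip1/Ift20 (2.63, 3.32, 1.97 and 1.82) and Cdk5/Slc4a2 (2.51, 2.61, 1.79 and 1.60). Tnfaip1 is an adaptor of a ubiquitin ligase, Ift20 a protein of ciliary transport, Cdk5 a kinase of neurons and Slc4a2 an anion exchanger. Among the 8 T cell markers, Cd3d, Cd3g, Cd8a and Cd8b1 were lower in replicates 3 and 4 than in replicates 1 and 2. Zbtb7b was higher, Cd4 was at 0 in all libraries, and Lck and Cd3e followed neither order. Smyd1/Cd8b1 was picked by its ratio, so its order follows from the choice. The part of cell types in these ratios was not tested.

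The highest ratios were at Zfp942/Zfp943, neighbouring zinc finger genes (0.551, 0.373, 1.01 and 1.21), and Hspa1a/Hspa1l, heat shock proteins of the HSP70 family (0.431, 0.263, 0.784 and 0.877). They were followed by Cbln3/Khnyn, a secreted protein of the cerebellum and an antiviral cofactor (0.5, 0.425, 0.746 and 1.18), and Ddx25/Pus3. In each of the first 3, replicates 3 and 4 lay above replicates 1 and 2 without overlap. In Ddx25/Pus3 the values overlapped, at 0.18, 0.110, 0.155 and 0.439 in replicates 1 to 4. The pairs were picked by their ratio, so such an order largely follows from the choice. The B cell marker sum was also higher in replicates 3 and 4, and its part in these differences was not tested.

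Footprints were most numerous at Cbx5/Hnrnpa1, the heterochromatin protein HP1 alpha and an RNA-binding protein, whose starts are 616 bp apart. It had 24, 16, 22 and 6 footprints in replicates 1 to 4. B3galt6/Sdf4, shown above, had 17, 21, 18 and 10, and Pdcd10/Serpini1, a protein of vascular junction signalling and a neuronal serpin, had 22, 14, 18 and 7. Cep57/Fam76b, whose first gene is a centrosomal protein, had 16, 18, 20 and 5. Replicate 4 had the fewest at each of the 4. Of the 7 NRF1 matches of the repeat between B3galt6 and Sdf4, 2, 4, 1 and 0 lay within a footprint, and the centre of the tallest peak lay 290, 380, 300 and 290 bp from the midpoint toward Sdf4, outside the repeat. How well reads can be placed within the repeat was not tested.

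The letters searched were GCGCANGCG for NRF1, CCGGAAG for ETS factors, CCAATNAG for NF-Y, GGGCGGGG for the SP/KLF family, AAGATGGC for YY1 and TGACGTCA for CREB. They were CACGTG for the E-box, GGCGGGAA for E2F, TATAAAA for the TATA box, ACTACANNT for ZNF143, TGTGGT for RUNX and CCACNAGGG for CTCF. The last 2 were GTTGCCATG for RFX and CTCGCGAG for the motif called CGCG here. N stands for any base, and both strands were searched. The letters of SP/KLF and E2F overlap in GGCGGG, and NRF1 matches on both strands can overlap each other, as at Cct5. These strict letters miss weaker sites. Of the 734 pairs, 497 held at least 1 of the 14 motifs between their starts. No such count is given for single promoters, so this is no contrast with them.

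ETS, NRF1 and ZNF143 matches were more frequent in pairs than in single promoters of equal length and CpG, in the sequence and in the footprints. A pair region holds more starts than a single window. Shares of regions and of stretches between the starts, here and below, were not counted per start. The ETS motif was in 43.9% of the pair regions, against 26.7% of the single windows, and in 3.62 ± 0.247% of footprints in pairs, against 2.35 ± 0.0819% in single promoters (SD, n = 4 libraries). NRF1 was in 32.0% of the pair regions, against 21.3%, and in 5.24 ± 1.97% of footprints, against 4.19 ± 1.65%. ZNF143 was in 16.5% of the pair regions, against 10.3%, and in 0.802 ± 0.298% of footprints, against 0.302 ± 0.0890%. The footprint differences of 1.27 ± 0.291, 1.05 ± 0.327 and 0.5 ± 0.216 points were positive in 4 of 4 libraries (p = 0.125 each before adjustment, exact sign-flip permutation, 14 motifs compared). With footprints not extended, the ETS difference was 0.675 points and that of ZNF143 0.217 points.

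RFX, bound by regulators of cilia and of antigen presentation, was in 2.59% of the pair regions, against 1.37%, and its footprint difference of 0.17 ± 0.108 points was also positive in 4 of 4 libraries. NF-Y stood out between the starts, where 13.5% of pairs (99 pairs) held it, against 5.80% of the equal stretches upstream of single promoters. Its share of footprints differed little, with 0.742 ± 0.123% in pairs and 0.646 ± 0.0839% in single promoters, and the pairs were higher in 3 of 4 libraries. YY1 was in 15.9% of pair regions, against 9.62%, but between the starts in 1.77%, against 1.02%.

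**Figure D5:**
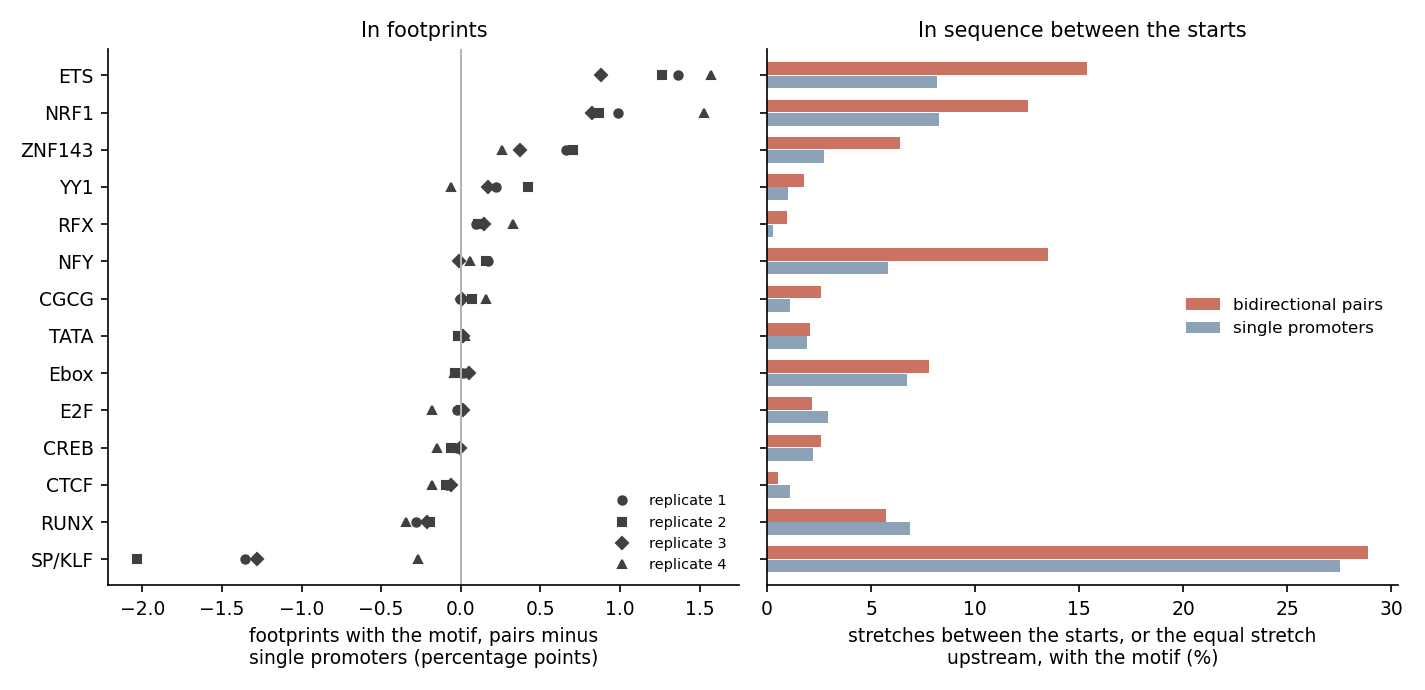
Left, difference between pairs and single promoters in the share of footprints that hold each motif (percentage points, 1 point per library). Right, share of stretches between the starts of pairs, and of the equal stretch upstream of single promoters, that hold the motif (%); ETS, NRF1, ZNF143 and RFX lie right of 0 in all 4 libraries and SP/KLF, RUNX, CTCF and CREB left of it, although the mean of CREB is above 0 with footprints not extended.

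Other motifs were less frequent in the footprints of pairs. SP/KLF was in 53.0% of the pair regions, against 57.9% of the single windows, and in 6.90 ± 0.373% of footprints, against 8.13 ± 0.958%, lower in 4 of 4 libraries by a difference of -1.23 ± 0.728 points. With footprints not extended this difference was -0.587 ± 0.795 points (p = 0.25, exact sign-flip permutation). RUNX, the motif of a factor family central to CD8 T cells, was in 40.1% of the pair regions, against 39.8%, but in 0.264 ± 0.124% of footprints in pairs, against 0.522 ± 0.0666% in single promoters. CTCF was in 6.13% of the pair regions, against 5.71%, and in 0.163% of footprints, against 0.269%. Both footprint differences (-0.257 ± 0.0686 and -0.106 ± 0.0514 points) were negative in 4 of 4 libraries (p = 0.125 each before adjustment, exact sign-flip permutation). With footprints not extended, the RUNX difference was -0.120 points.

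TATA was in 7.36% of the pair regions, against 10.7% of the single windows, and between the starts in 2.04% of pairs, against 1.93%. CREB was in 6.27% of the pair regions, against 4.72%, E2F in 13.8%, against 12.5%, E-box in 24.8%, against 24.3%, and CGCG in 5.31%, against 3.71%. The footprint differences of E-box, E2F and TATA (-0.00171, -0.0469 and 0.00882 points) were of either sign between libraries. That of CREB was -0.0601 points with footprints extended by 5 bp and 0.0109 points with none extended. After Benjamini-Hochberg adjustment over the 14 motifs no motif can pass 0.05, since the smallest p with 4 libraries is 0.125.

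The pairs next to the limit of 1 kb are given as a description. Those just inside it, Btf3l4/Txndc12 (987 bp), Asphd1/Sez6l2 (981 bp) and Zfyve26/Rad51b (978 bp), had mean relative heights of 1.28 ± 0.181, 0.997 ± 0.141 and 1.22 ± 0.172. Just outside it, Gpr108/Trip10 (1009 bp) had 2.30, 2.34, 2.66 and 2.37, Sgsm2/Tsr1 (1011 bp) had 0.849, 1.03, 1.02 and 1.26, and Dirc2/Hspbap1 (1019 bp) had 1.77, 1.68, 1.77 and 2.51.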

How the data were processed

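DNase-seq was deposited for 4 libraries of 1 group. Each library has 2 peak lists, a footprint list and a cut-rate list on mm10, per the labels. Peak heights are a signal that the authors scaled to each library's depth, and every list stems from 1 library, not from pooled ones. The deposited footprint lists carry a q-value threshold of 0.01 in every row, so footprints were only counted. Which aligner and callers were used, and how they were set, is not stated in these sources.

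The longer peak list of each library was used. Peaks that overlapped within a list by at least 1 bp were merged and kept the greater height. Heights were divided by the library's median at sites called in all 4 libraries (17545 of 86936 merged sites), which was 4.14, 8.35, 3.18 and 2.34 in replicates 1 to 4. A gene's 5′ end was that of its GENCODE gene record, the outermost annotated start. Single promoters were weighted within strata of window length (100 bp steps) and CpG (steps of 1 per 100 bp), and all 734 pairs had a stratum. Footprints were placed by their centre and extended by 5 bp on each side for motifs. Reads of the CAST allele were placed on a reference of the other strain, per the labels' build, and the part of this was not tested. Sequences were read from GRCm38.p6. Differences were tested with an exact two-sided sign-flip permutation over libraries. Regions are not replicates and got no test of their own.

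The pairs, lists, motifs and the rule for named pairs were chosen with earlier results of these data known. Named pairs were the 6 tallest, the textbook pairs, the 3 tallest and the lowest of each list, the 6 closed pairs with the most CpG, the 4 with the most footprints, the 4 widest with 2 or more peaks, the 4 highest and lowest library ratios, and the pairs next to the 1 kb limit. Some pairs that this rule names are not reported here. Gene lists by symbol start can hold unrelated genes. The cut-rate lists were not used here. Alternatives were the shorter peak lists, an equal number of peaks per library, other flanks, distance limits, CpG strata and CpG measures, stricter single promoters, deposited heights, footprints inside peaks, other footprint extensions and leaving out libraries; 1 pair per gene was added after seeing the data. The steps were tested on simulated data. Python 3.11.15, numpy 2.4.6, pandas 2.3.3 and matplotlib 3.10.9 were used.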

Additional observations from a re-analysis of the deposited data

Results flagged for a closer look

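Of 66 sets of 4 library values checked, 5 had a library far from the other 3, where chance alone flags about 1 in 20. The share of pairs with a peak was 88.4% in replicate 4, against 94.1% to 94.7% in the other libraries. The difference in median relative height between pairs and single promoters was 0.728 in replicate 4, against 0.888 to 0.918, and the difference in accessible length was 94.3 bp in replicate 4, against 69.6 to 70.2 bp. Replicate 4 had 20647 peaks, against 51121 to 70552 in the other libraries, and the part of depth was not tested. Among 54 named pairs, Wdr4/Ndufv3 had a relative height of 4.69 in replicate 2, against 3.33 to 3.52, and Zfp654/Cggbp1 had 3.13 in replicate 1, against 3.64 to 3.74.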

How the results depend on the processing

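Of 80 recomputed values of the 6 comparisons, 70 moved by less than the spread between libraries. Leaving libraries out cannot move a mean by more than this spread, so those values are among the 70 by arithmetic. Footprint counts use no peaks, so they were also fixed under the shorter peak lists and under an equal number of peaks. The count of 70 therefore overstates how well the results held. With the shorter peak lists, the difference in the share with a peak was 20.9 points and that in median height 0.649. Here and with an equal number of peaks, heights were divided by a new median at shared sites, so their differences have another scale. The medians were 1.35 in pairs against 0.699 in single promoters with the shorter lists. They were 1.44 against 0.756 with an equal number, and 1.81 against 0.946 in the main setting. With an equal number of tallest peaks per library, the differences were 25.7 points in the share with a peak, 0.687 in height, 0.0667 peaks per region, 98.2 bp and 14.1 points in tallest peaks between the starts, which were 13.4 points with flanks of 250 bp. With heights as deposited, the difference was 3.99. The difference in peaks per region turned to -0.0199 with 5′ ends at most 500 bp apart, and the cause was not tested. Leaving out 1 library at a time gave 16.4 to 18.5 points for the share with a peak, 0.841 to 0.904 for height, 0.00969 to 0.0381 peaks, 69.9 to 78.1 bp, 2.00 to 2.56 footprints and 15.8 to 17.6 points between the starts. Of 84 recomputed motif values, 76 moved by less than that spread. Most of the 84 left out 1 library, which cannot move a mean by more than the spread. The 8 values that moved all came from other footprint extensions. Footprints with no extension gave 0.675 points for ETS, 0.217 for ZNF143, -0.120 for RUNX and -0.587 for SP/KLF. Keeping 1 pair per gene (714 pairs) gave 17.9 points and 0.866. No paired analysis was possible because there is 1 group of samples, so replicate numbers pair nothing across groups; the differences from single promoters are already taken within each library. The limits are the 4 libraries, the low depth of replicate 4, the annotated 5′ ends, which need not be the ones used in these cells, and placement of reads at near-identical copies.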

Other observations

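Several textbook bidirectional pairs fell outside the definition because their annotated gene bodies overlap at the 5′ ends, and most of them were accessible too. Psmb9/Tap1, a subunit of the immunoproteasome and the peptide transporter of antigen presentation, overlap by 212 bp and reached 3.31, 3.76, 3.63 and 3.00 in relative height in replicates 1 to 4. Hspd1/Hspe1, the mitochondrial chaperonin and its co-chaperonin, overlap by 112 bp and had 2.64, 2.46, 3.28 and 2.54. Ppat/Paics, enzymes of purine synthesis, overlap by 272 bp and had 2.58, 2.57, 3.36 and 2.77. Surf1/Surf2, an assembly factor of cytochrome c oxidase and its neighbour, had 0.8, 0.950, 0.832 and 0. Col4a1/Col4a2, chains of type IV collagen, overlap by 22 bp and, like Col4a4/Col4a3, had no peak in any library.

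Peak height also differed with the sequence between the starts. The 19 pairs with a CREB palindrome there had a median relative height of 2.58 ± 0.163 (SD over 4 libraries), against 1.8 ± 0.0569 in the other 715 pairs. The 15 pairs with a TATA match had 0.985 ± 0.122, against 1.81 ± 0.0594 in the other 719, and the 212 pairs with an SP/KLF match had 2.01 ± 0.0529, against 1.74 ± 0.0559. All 4 libraries gave the same order for each, but the groups also differ in CpG content, with medians of 7.22 against 6.55 for CREB and 5.09 against 6.58 for TATA, and these values were not tested.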
